A study of Mus musculus with 3 samples.

Results

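The genes described here make, take up, move and store cholesterol. They were a list of 28 mouse symbols, matched to Ensembl identifiers in the deposited table of raw counts, and all 28 were found among its 19723 genes. Of these genes, 13019 reached at least 1 CPM (counts scaled to library size with TMM factors) in at least 1 library, and all 28 members were among them. Fdps passed through the control library alone, at 1.43 CPM. The members' symbols were chosen by pathway, with earlier results of these data known.

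RNA was sequenced from 3 sorted cell pools, and every mouse was a female BALB/c aged 6 to 8 weeks. The alisertib library came from myeloid-derived suppressor cells (MDSCs, immature myeloid cells that restrain T cells) of 20 pooled tumours from mice given alisertib, an inhibitor of the mitotic kinase Aurora A. The control library came from MDSCs of 20 pooled tumours of control mice, which the labels call both untreated and control treated, so whether a vehicle was given is unknown. The bone marrow library came from neutrophils of 5 wild-type mice without tumours. The labels name neither the tumour line, the dose and schedule, nor the surface markers of the sort. The stated purity of the sorts leaves room for a small share of other cells. Each group was 1 library, so no spread between animals could be computed and every difference is between these libraries.

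Cholesterol is built from acetyl-CoA through mevalonate to farnesyl diphosphate, which is also the source of ubiquinone, dolichol and the lipid anchors of small GTPases, and then through squalene and lanosterol. When sterol in the endoplasmic reticulum is low, the escort protein SCAP carries the membrane-bound transcription factor SREBP2 to the Golgi for cleavage, and the freed factor activates genes of synthesis and uptake. INSIG proteins hold SCAP back when sterol is plentiful. Lipoprotein cholesterol taken up by endocytosis is freed from its esters in lysosomes, exported by NPC2 and NPC1, and esterified again for storage in droplets.

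The alisertib, control and bone marrow libraries held 19373087, 21959748 and 21987097 counts. Log2 ratios compare TMM-scaled counts after adding 0.5. Fold ratios, and the exact 95% intervals in parentheses, were computed from the scaled counts with nothing added. A call, higher or lower, needed an interval that lay wholly beyond 2-fold. The intervals cover counting error only, because amplified reads carry no molecular identifiers. Scaling by total counts instead moved the median log2 ratio of all tested genes up by 0.27 for alisertib over control and down by 0.25 for control over bone marrow. Aurka, which encodes the drug's target, had 10.3 CPM in the alisertib library, 9.68 CPM in the control library and 27.1 CPM in bone marrow. The 12 neutrophil markers were detected in every library and summed to 15537 CPM with alisertib, 33997 CPM in control and 86715 CPM in bone marrow. The 10 markers of immature and dividing granulocytes summed to 76.7, 69.6 and 833 CPM in the same order, with the protease gene Ctsg at 0 counts in the alisertib library. The 12 monocyte and macrophage markers, all of them detected in each library, summed to 1077, 1002 and 597 CPM.

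Expressed per gene length as FPKM (the authors' fragments scaled to gene length and library size), the regulators Srebf2 and Insig1 and the transport and storage genes Npc2, Lipa, Soat1 and Nceh1 stood above most synthesis enzymes in every library, while Stard4, Scap and Insig2 lay among them. In the alisertib library the members ran from 0.147 FPKM for the lanosterol synthase gene Lss to 77.7 FPKM for the lysosomal sterol carrier gene Npc2. In the control library they ran from 0.125 FPKM for Lss to 76.1 FPKM for Srebf2, which encodes SREBP2. In bone marrow they ran from 0.0611 FPKM for the farnesyl diphosphate synthase gene Fdps to 32.7 FPKM for the mevalonate diphosphate decarboxylase gene Mvd. Mvd was the most abundant synthesis enzyme per length, with 32.9 FPKM in the alisertib library and 40.4 FPKM in control. The 18 synthesis enzymes together gave 235 CPM with alisertib, 290 CPM in control and 269 CPM in bone marrow. The 6 transport and storage genes gave 895 and 894 CPM in the alisertib and control libraries, against 437 CPM in bone marrow.

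**Figure D1:**
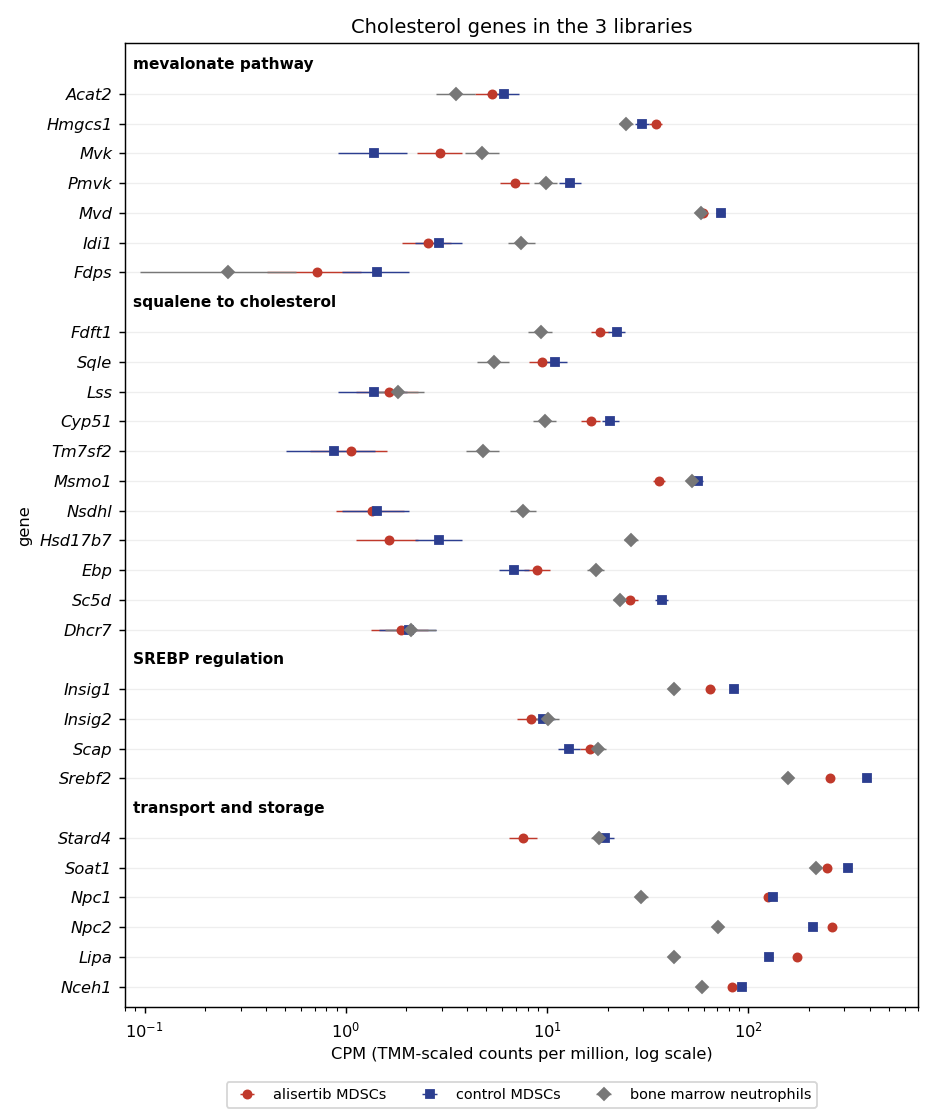
Level of each of the 28 members in the 3 libraries, grouped by role, as CPM on a log axis, with bars for the exact 95% Poisson interval (counting error only, 1 library per group). Npc1, Npc2 and Lipa sit higher in both tumour libraries than in bone marrow, while Nsdhl, Hsd17b7 and Tm7sf2 sit lower in both.

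Some members share sequence or exons with other genes, and their counts are uncertain for that reason. The level of Fdps, which makes the branch point of the pathway, was very low, at 15 counts with alisertib, 28 in control and 6 in bone marrow. Its transcripts match 4 annotated copies elsewhere in the genome at 95% identity or more over at least 500 bases, and 26.7% of its exon bases lie in another annotated gene on the same strand. Acat2, a thiolase that starts the pathway, has 1 such copy, the squalene synthase gene Fdft1 has 1 and the isomerase gene Idi1 has 2. Fdft1 also shares 774 bases, 18.3% of its exons, with the cathepsin gene Ctsb on the opposite strand. Ctsb stood at 2442 CPM with alisertib, 2566 CPM in control and 205 CPM in bone marrow, far above Fdft1 in each. Tm7sf2 shares 12.1% of its exon bases with Vps51 on the same strand. The strand setting of the counting is not given in the sources used here.

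Upstream sequences are shown for a member with a sterol regulatory element, for the SREBP2 gene itself and for 4 of the members called lower (Hsd17b7, Nsdhl) or higher (Npc2, Lipa) in both tumour libraries than in bone marrow. Tm7sf2, also called lower in both, has 1 CCAAT box in its window and is not shown. RefSeq start sites on GRCm38.p6 matched 23 of the 28 members, and the window was the 250 bases before each start, searched on both strands. The sterol regulatory element TCACNCCAC, the site bound by SREBP, lay in the window of 1 of the 23, Hmgcs1, beginning 137 bases before the start, in 1.22% of the 9355 tested genes with a window, and in 1.05% of all 32851 windows. CCAAT, the box bound by the SREBP partner NF-Y, lay in a window of 21 of the 23 members and of 39.8% of those tested genes. GGGCGG, the Sp1 box, lay in a window of 19 of the 23 members and of 62.4% of those tested genes. A match is only a match of letters, and elements that differ from the searched form were not counted. Capitals mark the sterol regulatory element and the CCAAT boxes, which read ATTGG on the other strand.
Hmgcs1 (chr13:119690101-119690350, plus strand): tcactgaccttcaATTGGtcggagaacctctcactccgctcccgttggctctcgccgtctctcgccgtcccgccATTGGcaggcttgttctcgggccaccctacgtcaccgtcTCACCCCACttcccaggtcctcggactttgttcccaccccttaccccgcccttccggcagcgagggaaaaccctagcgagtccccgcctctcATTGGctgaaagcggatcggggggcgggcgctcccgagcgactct
Srebf2 (chr15:82147019-82147268, plus strand): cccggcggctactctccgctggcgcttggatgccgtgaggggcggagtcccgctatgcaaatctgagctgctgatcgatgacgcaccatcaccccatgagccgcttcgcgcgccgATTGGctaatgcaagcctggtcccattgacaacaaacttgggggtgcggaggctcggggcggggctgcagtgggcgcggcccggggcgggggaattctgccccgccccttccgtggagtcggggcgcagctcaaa
Hsd17b7 (chr1:169969206-169969455, minus strand): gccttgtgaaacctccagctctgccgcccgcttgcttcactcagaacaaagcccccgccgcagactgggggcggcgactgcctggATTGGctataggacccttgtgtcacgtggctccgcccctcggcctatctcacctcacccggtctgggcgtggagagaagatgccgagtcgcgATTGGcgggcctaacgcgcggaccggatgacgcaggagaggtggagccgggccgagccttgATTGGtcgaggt
Nsdhl (chrX:72918271-72918520, plus strand): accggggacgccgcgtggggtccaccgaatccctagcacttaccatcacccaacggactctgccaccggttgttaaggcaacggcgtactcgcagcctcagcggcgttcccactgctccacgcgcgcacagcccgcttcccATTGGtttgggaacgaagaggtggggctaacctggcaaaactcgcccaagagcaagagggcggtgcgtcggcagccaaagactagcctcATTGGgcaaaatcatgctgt
Npc2 (chr12:84773113-84773362, minus strand): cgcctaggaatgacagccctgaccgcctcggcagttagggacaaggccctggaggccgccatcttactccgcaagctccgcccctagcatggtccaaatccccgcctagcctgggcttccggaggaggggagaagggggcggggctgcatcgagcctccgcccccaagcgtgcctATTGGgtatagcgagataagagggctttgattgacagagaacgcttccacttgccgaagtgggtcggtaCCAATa
Lipa (chr19:34527475-34527724, minus strand): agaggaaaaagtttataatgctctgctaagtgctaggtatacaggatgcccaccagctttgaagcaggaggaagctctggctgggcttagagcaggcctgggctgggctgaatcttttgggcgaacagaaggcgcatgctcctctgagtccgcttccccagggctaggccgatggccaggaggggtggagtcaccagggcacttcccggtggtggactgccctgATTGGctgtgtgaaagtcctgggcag
Hmgcs1 holds 3 CCAAT boxes besides its sterol regulatory element. Hsd17b7 holds 3 boxes, Nsdhl and Npc2 hold 2 each, and Srebf2 and Lipa hold 1 each, so the box occurs upstream of members called higher and of members called lower.

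The first comparison set MDSCs from alisertib-treated mice against those of control mice. Among the 28 members, 1 was called lower and 0 were called higher with alisertib, against 1.18% lower and 1.80% higher (2.98% in all) of the tested genes. The called gene was Stard4, which encodes a cytosolic carrier that moves sterol between membranes. Stard4 (ENSMUSG00000024378) had 158 counts and 7.61 CPM with alisertib, against 378 counts and 19.4 CPM in control, while bone marrow had 18.2 CPM. The alisertib library thus stood alone at the low end, 2.54-fold below control (2.11 to 3.08). With total counts its log2 ratio was -1.08 rather than -1.34, and it was no longer called. The median log2 ratio of the members was -0.20, against 0.00 over all tested genes. Of the 28 members, 20 lay below 0, as did 49.9% of all tested genes. With total counts the median of the members was 0.07, against 0.27 over all genes, and 12 members lay below 0, as did 29.1% of all tested genes. Total counts move every gene by the same amount, so the gap between these medians does not depend on that choice.

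None of the 7 enzymes of the mevalonate pathway was called between the tumour libraries. Hmgcs1, which condenses acetoacetyl-CoA with acetyl-CoA, had 34.6 CPM with alisertib and 29.7 CPM in control, a ratio of 1.17 (1.04 to 1.30). Mvk, the first mevalonate kinase of the pathway, had 61 counts with alisertib against 27 in control, a ratio of 2.13 (1.33 to 3.48) that did not reach the call. Pmvk, the kinase that follows it, had the opposite order, with 6.94 CPM with alisertib and 13.0 CPM in control, 1.87-fold lower (1.52 to 2.32). Mvd had 59.6 CPM with alisertib and 73.0 CPM in control. Acat2 (5.30 and 6.09 CPM) and Idi1 (2.55 and 2.92 CPM) had intervals that included 1. For Fdps the alisertib library had 0.723 CPM and the control library 1.43 CPM. Mvk and Pmvk catalyse consecutive steps, and their ratios lay on opposite sides of 1.

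From squalene to cholesterol, 8 of 11 enzymes lay below the control library with TMM scaling, as did 49.9% of all tested genes, and none was called. With total counts, Sqle (log2 ratio 0.06), Dhcr7 (0.14) and Nsdhl (0.18) lay above control instead. Msmo1, the methyl oxidase that begins removal of the sterol's methyl groups, had 747 counts and 36.0 CPM with alisertib, against 1098 counts and 56.2 CPM in control, 1.56-fold lower (1.42 to 1.72). Sc5d, a late desaturase, had 25.9 CPM with alisertib and 37.2 CPM in control, 1.44-fold lower (1.28 to 1.61). These were the enzymes with over 10 CPM that lay farthest below control. Cyp51, the lanosterol demethylase, had 16.5 CPM with alisertib and 20.6 CPM in control, and Fdft1 had 18.3 and 22.2 CPM. Sqle, the oxygen-dependent squalene epoxidase, had 9.44 and 10.9 CPM with an interval that included 1. Hsd17b7, the ketosteroid reductase of the demethylation complex, had 34 counts with alisertib and 57 in control, 1.78-fold lower (1.15 to 2.81). Ebp, a sterol isomerase, had 8.91 CPM with alisertib against 6.86 CPM in control, a ratio of 1.30 (1.03 to 1.64). Lss, Tm7sf2, Nsdhl and Dhcr7 had at most 40 counts in either tumour library, and no difference was detectable for them at this depth.

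Among the regulators, Srebf2 had 5284 counts and 255 CPM with alisertib, against 7610 counts and 390 CPM in control, 1.53-fold lower (1.48 to 1.59) and short of the call. Insig1, whose gene is itself a target of SREBP2, had 64.8 CPM with alisertib and 85.1 CPM in control, 1.31-fold lower (1.22 to 1.41). Insig2, the second retention protein, had 8.29 and 9.52 CPM with an interval that included 1. Scap had the reverse order, with 16.3 CPM with alisertib and 12.8 CPM in control, a ratio of 1.27 and an interval that did not include 1. With total counts the log2 ratio of Srebf2 was -0.35 and that of Insig1 -0.13.

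Of the 3 lysosomal genes, Lipa and Npc2 lay slightly above control and Npc1 did not. Lipa, the acid lipase that frees cholesterol from its esters, had 174 CPM with alisertib against 127 CPM in control, a ratio of 1.37 (1.30 to 1.45). Npc2 had 261 CPM with alisertib and 210 CPM in control, a ratio of 1.24 (1.19 to 1.29), while its membrane partner Npc1 had 125 and 132 CPM. With TMM scaling the genes of the ester cycle lay the other way. Soat1, which esterifies cholesterol for storage, had 245 CPM with alisertib and 313 CPM in control, 1.28-fold lower (1.23 to 1.33), and the ester hydrolase gene Nceh1 had 83.1 and 93.2 CPM. None of these 5 genes was called. With total counts the log2 ratio was -0.09 for Soat1, which stayed below 0, 0.10 for Nceh1 and 0.19 for Npc1. The directions of Nceh1 and Npc1 therefore depend on the scaling, and for Soat1 the size of the difference does. Markers of other cells moved in the same comparison: of the 10 T and NK cell markers past the filter, 6 were called higher with alisertib. Cd3e, a chain of the T cell receptor complex, stood at 98 counts with alisertib against 17 in control. Cd3d, a further chain, lay the other way, with 129 counts with alisertib against 170 in control, as did Nkg7 (10 and 14 counts). The NK cell gene Klrb1c was at 0 in both. Of 7 B cell markers, 6 were called higher, summing to 43.4 CPM against 5.63 CPM. The macrophage complement genes C1qa (643 and 410 counts), C1qb (361 and 237 counts) and C1qc (461 and 280 counts) lay above control without being called. Of 12 neutrophil markers, 6 were called lower with alisertib. The part of these cells in the differences above was not tested, and in pooled cells a smaller number of cells of a type cannot be told apart from less RNA per cell.

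**Figure D2:**
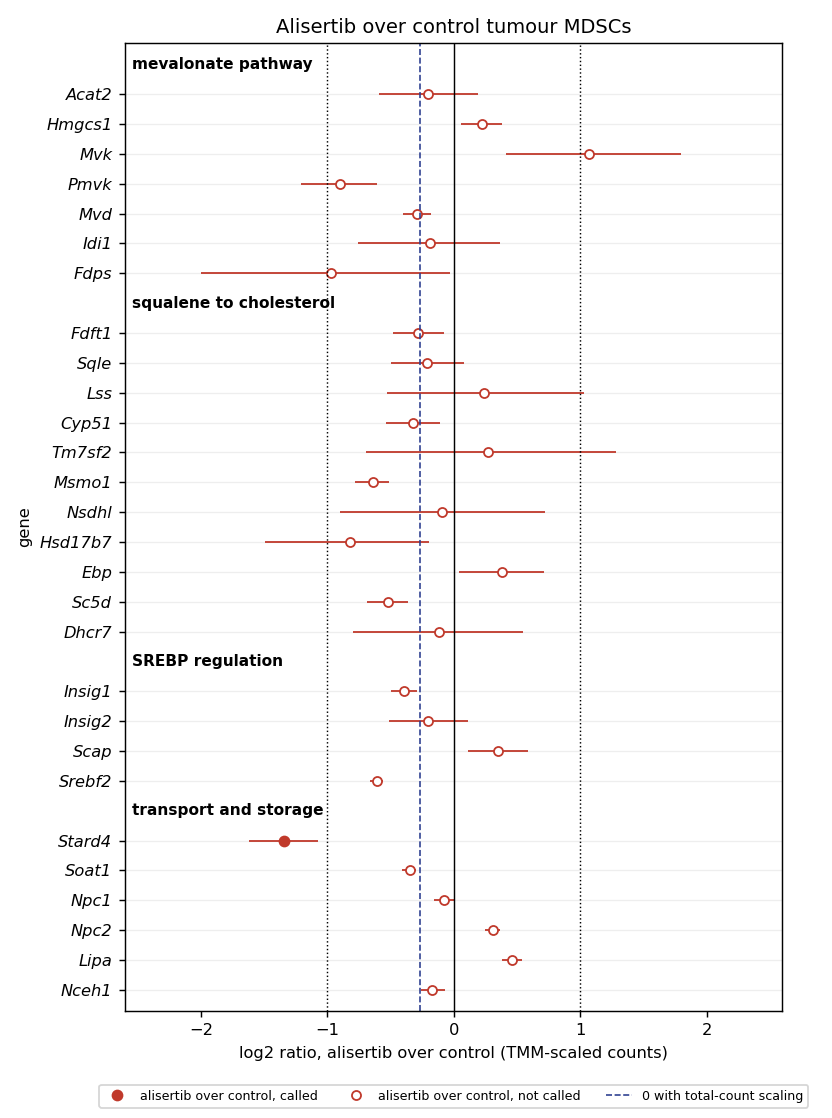
Log2 ratio of alisertib over control MDSCs for each member on TMM-scaled counts, with the exact 95% counting interval, dotted lines at 2-fold, and a dashed line where 0 would lie with total-count scaling. Stard4, at -1.34, is the filled point and the member called. Srebf2 (-0.61), Msmo1 (-0.64) and Pmvk (-0.90) lie left of both zero lines.

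Set against bone marrow neutrophils, both tumour libraries had more RNA of the lysosomal genes Npc1, Npc2 and Lipa and less of the synthesis enzymes Hsd17b7, Nsdhl and Tm7sf2. Srebf2 was called higher in control alone. Both comparisons use the same bone marrow library and are therefore not independent. With alisertib, 3 members were called higher and 4 lower than in bone marrow, 10.7% and 14.3% of the 28, against 18.7% and 22.3% (41.0% in all) of the tested genes. In control, 6 were called higher and 5 lower, 21.4% and 17.9%, against 18.3% and 22.9% (41.3% in all) of the tested genes. These shares were near or below those of all genes, and are no result about the members as a group. The median log2 ratio of the members was 0.10 with alisertib and 0.36 in control, against -0.09 and -0.14 over all tested genes.

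The firmest higher genes were those of lysosomal cholesterol release. Npc1 had 2590 counts and 125 CPM with alisertib, 2578 counts and 132 CPM in control, and 678 counts and 29.4 CPM in bone marrow. It was 4.25-fold higher with alisertib (3.90 to 4.63) and 4.49-fold higher in control (4.12 to 4.89). Npc2, which hands cholesterol to NPC1, had 261, 210 and 70.7 CPM with alisertib, in control and in bone marrow. Its ratio to bone marrow was 3.69 with alisertib (3.49 to 3.90) and 2.97 in control (2.80 to 3.15). Lipa had 174, 127 and 42.9 CPM, with ratios of 4.05 with alisertib (3.78 to 4.35) and 2.95 in control (2.74 to 3.18). Both tumour libraries stood well above bone marrow for all 3 genes, and all 3 stayed called with total counts and with DESeq2 size factors. Npc2 lies on chromosome 12 at 84754562 to 84773152 on the minus strand and Lipa on chromosome 19 at 34492318 to 34527474 on the minus strand of GRCm38. The monocyte and macrophage markers, which summed to 1077 CPM with alisertib and 1002 CPM in control against 597 CPM in bone marrow, also stood higher in sum, with 7 of 12 called higher and 2 lower with alisertib, and 6 higher and 3 lower in control. Cd68, a lysosomal glycoprotein of macrophages, had 289, 345 and 24.3 CPM, and Csf1r, the macrophage growth factor receptor, 173, 174 and 175 CPM. Their part in the result was not tested.

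The storage genes differed less. Soat1 had 245 CPM with alisertib and 313 CPM in control, against 217 CPM in bone marrow. Its ratio was 1.13 with alisertib and 1.44 in control, neither called. Nceh1 had 83.1 and 93.2 CPM in the alisertib and control libraries, against 58.6 CPM in bone marrow, with ratios of 1.42 and 1.59. Stard4 had 7.61 CPM with alisertib, 2.39-fold below bone marrow (1.99 to 2.89), and 19.4 CPM in control, a ratio of 1.06 (0.923 to 1.22). The alisertib value fell just short of the call, as the bound nearest to 1 was 1.99-fold.

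Of the regulators, Srebf2 had 255 CPM with alisertib and 390 CPM in control, against 157 CPM in bone marrow. It was called higher in control, at 2.48-fold (2.38 to 2.58), and with alisertib its ratio was 1.62 (1.55 to 1.69). The gene lies on chromosome 15 at 82147181 to 82205379 on the plus strand of GRCm38. Insig1 followed the same order, with 64.8, 85.1 and 42.6 CPM, and in control its ratio (1.85 to 2.17) missed the call. Insig2 had 8.29, 9.52 and 10.1 CPM and Scap 16.3, 12.8 and 17.9 CPM, with neither called in either comparison.

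Fdft1, Sqle and Cyp51 lay above bone marrow in both tumour libraries. Fdft1 had 18.3 CPM with alisertib and 22.2 CPM in control, against 9.28 CPM in bone marrow, and was called higher in control at 2.39-fold (2.02 to 2.83). This call was lost with total counts, and the overlapping gene Ctsb was also higher in both tumour libraries. Its part in the counts of Fdft1 was not tested. Sqle had 9.44, 10.9 and 5.42 CPM, with a ratio of 2.01 in control (1.61 to 2.53). Cyp51 had 16.5, 20.6 and 9.71 CPM, with a ratio of 2.12 in control (1.80 to 2.51). Neither reached the call.

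Of the 11 enzymes from squalene to cholesterol, 3 (27.3%) were called lower than bone marrow with alisertib and 4 (36.4%) in control. Of all tested genes, 22.3% were called lower with alisertib and 22.9% in control. The enzymes called lower all act after Cyp51. Hsd17b7 had 34 counts and 1.64 CPM with alisertib and 57 counts and 2.92 CPM in control, against 605 counts and 26.2 CPM in bone marrow. It was between 11.3-fold and 23.3-fold lower with alisertib, a log2 ratio of -3.98, and 8.99-fold lower in control (6.84 to 12.0). Nsdhl, the dehydrogenase that acts beside it in removing the methyl groups, had 28 counts in each tumour library against 176 in bone marrow, 5.66-fold lower with alisertib (3.78 to 8.76) and 5.32-fold lower in control (3.56 to 8.24). Both tumour libraries stood far below bone marrow for these genes. Hsd17b7 lies on chromosome 1 at 169949535 to 169969241 on the minus strand and Nsdhl on chromosome X at 72918557 to 72958514 on the plus strand. Tm7sf2, a sterol reductase, had 22 counts with alisertib, 17 in control and 111 in bone marrow and was called lower in both comparisons, at 4.54-fold and 5.53-fold. Vps51, with which it shares exon bases, was also lower, with 11.5 and 13.7 CPM in the alisertib and control libraries against 37.8 CPM. Ebp had 8.91 and 6.86 CPM in the tumour libraries against 17.4 CPM in bone marrow. It was called lower in control at 2.54-fold (2.08 to 3.11), and with alisertib it was 1.96-fold lower (1.64 to 2.34). The control call of Ebp was lost with DESeq2 size factors.

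The other late enzymes were closer to bone marrow. Msmo1, which acts in the same complex as Nsdhl and Hsd17b7, had 36.0 CPM with alisertib and 56.2 CPM in control, against 52.6 CPM in bone marrow. Sc5d had 25.9, 37.2 and 23.1 CPM. For Lss (1.64, 1.38 and 1.82 CPM) and Dhcr7 (1.88, 2.05 and 2.12 CPM), the enzyme of the last step, no difference was detectable. With alisertib Msmo1, like Nsdhl and Hsd17b7, lay below bone marrow, 1.46-fold (1.33 to 1.60), and in control its interval included 1 (0.984 to 1.16).

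In the mevalonate pathway, Mvk had 2.94 CPM with alisertib and 1.38 CPM in control, against 4.77 CPM in bone marrow, and was called lower in control at 3.45-fold (2.25 to 5.47). Idi1 had 2.55 and 2.92 CPM in the alisertib and control libraries, against 7.46 CPM in bone marrow. It was called lower with alisertib at 2.92-fold (2.13 to 4.05), and was 2.56-fold lower in control (1.88 to 3.51), which was not called here but was with total counts. Fdps was called higher in control, with 28 against 6 counts, but not with total counts. It passed the filter through the control library alone, so this call is no support for a difference. Hmgcs1 had 34.6, 29.7 and 24.7 CPM, Mvd 59.6, 73.0 and 58.2 CPM, Pmvk 6.94, 13.0 and 9.84 CPM and Acat2 5.30, 6.09 and 3.51 CPM. These 4 genes were not called in either comparison. Where a gene was called in one tumour library and not in the other, the difference between the tumour libraries is the ratio of alisertib over control given above.

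Beside the lower enzymes, markers of immature and dividing granulocytes were also lower in tumour MDSCs, with 9 of 10 called in each comparison. The proliferation gene Mki67 had 57.7 CPM with alisertib and 51.1 CPM in control, against 326 CPM in bone marrow. Cebpe, a transcription factor of the granule-forming stages, had 5.64 and 4.97 CPM against 229 CPM. B cell markers summed to 43.4 and 5.63 CPM in the tumour libraries against 207 CPM in bone marrow, and erythroid markers to 5.35 and 6.25 CPM against 73.9 CPM. Of the 3 epithelial markers past the filter, 2 were called higher in both tumour libraries, with Krt18 at 7.95 and 6.81 CPM against 0.217 CPM, and Epcam at 73 and 48 counts against 0. The third, Cdh1, had 6.17 and 7.01 CPM against 5.46 CPM and was not called. Stage of maturation, other cells in the sort, tissue and mouse cannot be told apart in this design.

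**Figure D3:**
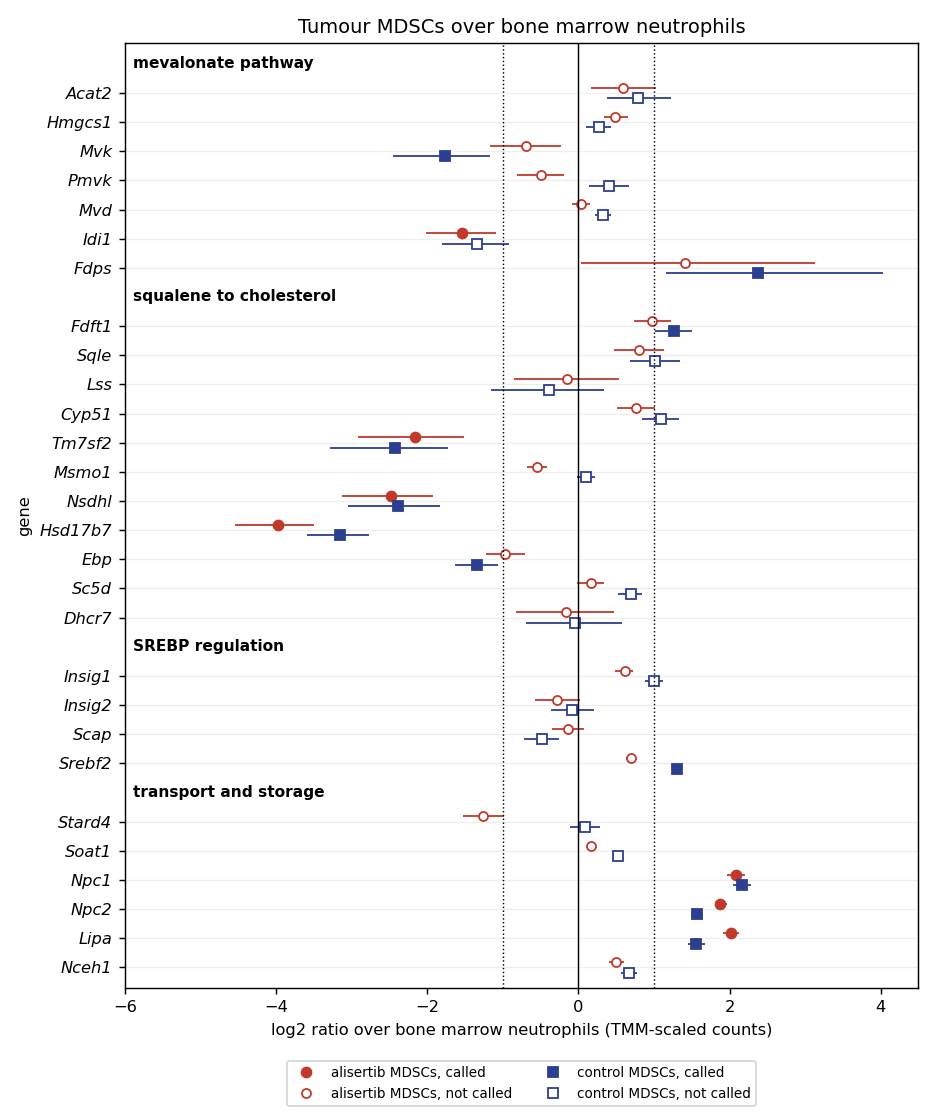
Log2 ratio of alisertib MDSCs (circles) and control MDSCs (squares) over the same bone marrow library for each member, on TMM-scaled counts, with exact 95% counting intervals and dotted lines at 2-fold. Filled points were called. Npc1, Npc2 and Lipa lie near 2 on the right, and Hsd17b7 lies farthest left, at -3.98 with alisertib and -3.16 in control.

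Other sterol genes were read from 7 lists. Of 10 lipoprotein uptake genes, 8 passed the filter. With alisertib, 4 were called higher and 1 lower than in bone marrow, and in control 3 were called higher and 0 lower. Of all tested genes, 18.7% were called higher and 22.3% lower with alisertib, and 18.3% and 22.9% in control. Lrp1, a large endocytic receptor, had 148 and 169 CPM in the alisertib and control libraries against 37.2 CPM in bone marrow, 3.97-fold and 4.54-fold higher. The scavenger receptor gene Msr1 had 13.8 and 24.6 CPM against 3.08 CPM, and Cd36, a second scavenger receptor, 6.41 and 3.99 CPM against 1.52 CPM. Cd36 was called higher with alisertib, and in control its ratio of 2.63 (1.75 to 4.04) was not called. Mylip, which encodes a ubiquitin ligase that removes lipoprotein receptors, had 116 and 85.9 CPM against 35.8 CPM, called higher in both comparisons. None of the 8 was called between alisertib and control.

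Among 6 further synthesis genes past the filter, 4 were called lower and 1 higher than in bone marrow with alisertib, and 3 lower and 1 higher in control, where all tested genes had the shares just given. Lbr, which encodes a nuclear membrane receptor with sterol reductase activity needed for lobed neutrophil nuclei, had 74.9 CPM with alisertib and 137 CPM in control, against 716 CPM in bone marrow. It was 9.56-fold lower with alisertib (9.08 to 10.1) and 5.23-fold lower in control (5.02 to 5.45). Acly, which supplies cytosolic acetyl-CoA, had 84.4 and 105 CPM against 239 CPM, and the mitochondrial thiolase gene Acat1 had 2.02 and 3.28 CPM against 9.45 CPM. Lbr and Tm7sf2 share an enzymatic activity and were both lower. Hsd17b12, a reductase that also elongates fatty acids, was the gene called higher, with 28.6 and 23.7 CPM against 8.71 CPM.

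Of 13 genes that process SREBP or degrade sterol enzymes, 2 were called higher and 3 lower than bone marrow in each comparison. These shares, 15.4% and 23.1%, are near those of all tested genes, 18.7% and 22.3% with alisertib and 18.3% and 22.9% in control. Sec24a, a coat subunit of vesicles that leave the endoplasmic reticulum, had 38.9 CPM with alisertib and 45.6 CPM in control against 10.1 CPM in bone marrow. Srebf1, which encodes the related factor SREBP1, had 45.2 and 64.0 CPM against 26.3 CPM and was called in control at 2.44-fold (2.21 to 2.69). Pgrmc1, a haem-binding membrane protein, had 52.6 and 43.6 CPM against 22.2 CPM and was called with alisertib. Genes called lower in both included Erlin1, which encodes a membrane protein of the endoplasmic reticulum (8.19 and 6.76 CPM against 27.7 CPM) and the SREBP-cleaving protease gene Mbtps2 (3.28 CPM in each tumour library against 9.19 CPM). None of the 13 was called between alisertib and control.

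In the list of intracellular sterol transfer, 1 of 13 genes was called between the tumour libraries. Anxa2, a membrane-binding annexin, had 6793 counts and 327 CPM with alisertib, against 18020 counts and 923 CPM in control, 2.82-fold lower (2.74 to 2.90), while bone marrow had 958 CPM. As for Stard4, the alisertib library stood below the other libraries. Against bone marrow, 3 genes were called higher and 4 lower with alisertib (23.1% and 30.8%, against 18.7% and 22.3% of all tested genes). In control 3 were called higher and 2 lower (23.1% and 15.4%, against 18.3% and 22.9%). The sterol transporter genes of the GRAMD1 family split, with Gramd1b at 34.5 and 42.4 CPM against 180 CPM in bone marrow, and Gramd1c at 9.44 and 7.01 CPM against 0.433 CPM. The oxysterol-binding gene Osbpl2 had 23.8 and 21.5 CPM against 147 CPM, and Osbpl1a 7.03 and 6.81 CPM against 2.04 CPM. Stard5, a relative of Stard4, had 14.5 and 16.2 CPM against 35.1 CPM and was called lower with alisertib. It shares 22.0% of its exon bases with Il16 on the opposite strand, a gene that was lower too, at 531 and 781 counts against 3707 counts.

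**Figure D4:**
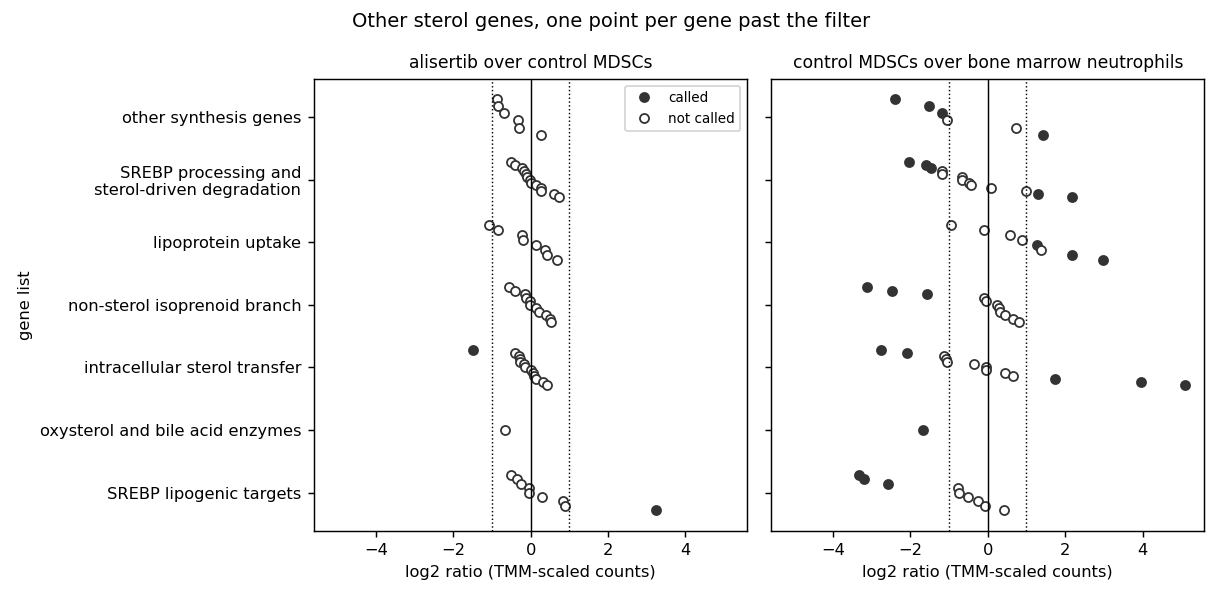
Log2 ratios of the genes past the filter in 7 further lists, for alisertib over control MDSCs (left) and for control MDSCs over bone marrow neutrophils (right), on TMM-scaled counts, with dotted lines at 2-fold and filled points for called genes. On the left the called genes are Anxa2, below -1, and Elovl6, at 3.25, and on the right they lie on both sides of 0, out to Soat2 at 5.10.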

How the data were processed

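RNA sequencing of 3 pooled cell sorts was used. The authors deposited raw counts for each gene and, in a second table, FPKM values. Per the submitters' processing notes, the tools were CASAVA 1.8 and STAR 2.5.1b, and both mm9 and mm10 are listed without a role. How reads were counted, with which strand setting and annotation, is not stated there. FPKM values served to compare levels between genes, and counts for all ratios.

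TMM factors (edgeR 4.0.16, R 4.3.3) were 1.07148 (alisertib), 0.88952 (control) and 1.0492 (bone marrow). Genes under 1 CPM in every library were left out. Intervals were exact (Clopper-Pearson, 95%), and 3 counts equal 0.145, 0.154 and 0.130 CPM in the 3 libraries. With 1 library per group there was no test between conditions and no p-value. The procedure was tested on simulated counts with known fold changes and counting error alone, which cannot show spread between animals or libraries. Symbols came from GENCODE M21 and 75 genes had none. Close copies were searched with BLAST 2.17.0 in its transcripts, and positions are on GRCm38. Upstream sequences are from RefSeq (GRCm38.p6).

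The members and lists were chosen with earlier results of these data known. All 28 members were named, as were companion genes that were called and otherwise the most abundant. The upstream sequences shown were chosen after the values were seen. Some genes that met the rule are not reported here. Other scalings, filters, call rules and FPKM ratios were tried as alternatives.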

Additional observations from a re-analysis of the deposited data

Results flagged for a closer look

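Of the listed genes, 12 were found in the FPKM table alone and so entered no comparison of counts. Among them, 3 had at least 0.1 FPKM with alisertib and a higher value there than in control. Ch25h, which encodes the enzyme that makes an oxysterol that holds back SREBP cleavage, had 0.347 FPKM with alisertib and 0.148 FPKM in control, and was listed at 0 in bone marrow. Krt8, a keratin of simple epithelia, had 6.64 FPKM with alisertib, 5.17 FPKM in control and 0.0238 FPKM in bone marrow. Krt19, a further keratin, had 1.89 FPKM with alisertib and 1.21 FPKM in control, and was listed at 0 in bone marrow. Other genes of the same table lay the other way. Krt14 had 0.0266 FPKM with alisertib and 0.539 FPKM in control, and the fibroblast gene Dcn had 0.0898 FPKM with alisertib and 0.191 FPKM in control, both listed at 0 in bone marrow. The depth behind these values is unknown, and the differences were not tested.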

How the results depend on the processing

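No paired analysis was possible because each group was 1 library. Between alisertib and control, total counts left 0 members called lower and moved the members' median log2 ratio to 0.07, and calls over all genes moved with it, with 84.0% of them higher (431 higher and 82 lower), against 60.3% with TMM (234 and 154). FPKM plus 1 also left 0 members called lower, a bound of 1.5-fold gave 2, and a point ratio of 2-fold gave 1 member called higher (Mvk). Between control and bone marrow, the median was 0.13 with total counts and 0.60 with a filter of 10 CPM, and members called lower numbered 2 with that filter and 3 with FPKM plus 1. Between alisertib and bone marrow, a bound of 1.5-fold gave 5 members called higher, and members called lower numbered 1 with the 10 CPM filter, 2 with FPKM plus 1 and 2 without the 7 members that have close copies or share 10% or more of their exon bases. That last alternative was chosen after the data were seen. The filters and the left-out members lower these counts by their construction, and for the others the cause was not tested. No called member changed sign with total counts, DESeq2 size factors or FPKM plus 0.1. Genes with few counts, such as Fdps, Lss, Dhcr7 and Tm7sf2, have wide intervals at this depth.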

Other observations

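Of 9 fatty acid and lipid genes that SREBP factors also drive and that passed the filter, 1 was called higher with alisertib than in control. Elovl6, which lengthens palmitate, had 45 counts with alisertib, 4 in control and 48 in bone marrow, a ratio of 10.6 over control (3.86 to 40.5). Fasn, the fatty acid synthase gene, had 282 counts with alisertib and 142 in control, a ratio of 1.87 (1.52 to 2.30) that was not called. With alisertib, 2 of the 9 (22.2%) were called lower than in bone marrow, against 22.3% of all tested genes, and in control 3 (33.3%), against 22.9%. Aacs, which makes acetoacetyl-CoA for sterol synthesis from ketone bodies, had 6.36 CPM with alisertib and 9.01 CPM in control, against 54.1 CPM in bone marrow. Gpam, the first enzyme of glycerolipid synthesis, had 8 and 4 counts in the tumour libraries against 53 in bone marrow. It is among the genes called lower but passed the filter through bone marrow alone, so its calls are no support for a difference.

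Among 11 genes that use farnesyl diphosphate for other products, 3 (27.3%) were called lower than bone marrow in each comparison, against 22.3% of all tested genes with alisertib and 22.9% in control. None was called between alisertib and control. Dhdds, a subunit of the enzyme that makes dolichol precursors, had 17.2 CPM with alisertib and 18.9 CPM in control, against 105 CPM in bone marrow. Pdss2, a subunit of the enzyme that makes the ubiquinone side chain, had 11 and 7 counts against 77, and passed the filter through bone marrow alone. The farnesyltransferase subunit gene Fntb had 1.78 and 2.35 CPM against 6.98 CPM.

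Soat2, known as the cholesterol esterifying enzyme of liver and intestine, had 1672 counts with alisertib and 1906 in control, against 65 in bone marrow, and was called higher in both comparisons at 28.6-fold (22.3 to 37.2) and 34.6-fold (27.0 to 45.1). It begins 1014 bases after the end of Igfbp6 on the same strand of chromosome 15. Igfbp6 had 1480 counts with alisertib, 2029 in control and 5 in bone marrow. Of the oxysterol enzymes, Cyp27a1 had 16 and 24 counts against 92 in bone marrow, and Cyp7b1 had 0 counts in every library.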
